A study of Mus musculus with 3 samples.

Results

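The genes described here encode the proteasome, its immune form and its helpers. They are the 50 genes, out of 19938 measured, whose symbol is Psm followed by a letter from a to g and a digit, read by 56 probe sets that each name 1 gene. A further probe set that names both Psme2b and Psme2 was left out. Of the 50 genes, 48 have a proteasome role; Psmc3ip, which acts in meiotic recombination, and Psme3ip1, which encodes a partner of an activator, are named for the complex without being part of it.

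RNA of sorted CD11c(hi) CD11b+ dendritic cells from mouse spleen was hybridised to Affymetrix arrays (Mouse Gene 1.0 ST), with 1 array for each of 3 groups. Control mice were Cx3cr1-GFP+ RBPJflox/flox littermates lacking Cre, and their cells were sorted into an Esam(hi) GFP(lo) and an Esam(lo) GFP(hi) population. The group labelled RBPJ-null was the Esam(lo) GFP(hi) population of Cx3cr1-GFP+ RBPJflox/flox CD11c-Cre+ mice, in which Cre is driven by the CD11c promoter and is therefore not limited to CD11b+ dendritic cells. Every group thus carries the floxed alleles and the GFP reporter, spleens of 2 to 3 mice were pooled for a population, and no age of the mice is given here. Because each group has a single array, replicate error is unknown, no difference below has a test, and each one compares arrays rather than conditions.

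The proteasome is a barrel-shaped protease that degrades ubiquitin-tagged proteins. Its core particle has outer rings of alpha subunits and inner rings of beta subunits, 3 of which hold the catalytic sites, and a regulatory cap with ATPase subunits unfolds the substrate. Cells of the immune system, and other cells under interferon gamma, exchange the catalytic subunits Psmb5, Psmb6 and Psmb7 for Psmb8, Psmb9 and Psmb10 and make the activator ring of Psme1 and Psme2. The peptides released by this immunoproteasome feed the loading of MHC class I molecules, a pathway by which dendritic cells show antigen to CD8+ T cells.

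All values are log2 expression values as deposited, and the 2 control arrays are called the Esam(hi) control and the Esam(lo) control. A gene was taken as above background on an array when it exceeded the 95th percentile, on that array, of 1194 receptor genes of the olfactory and vomeronasal families, at 7.17 on the Esam(hi) control, 6.76 on the Esam(lo) control and 6.87 on the array labelled RBPJ-null. A difference was counted when it reached 2-fold and the brighter array was above background. Rbpj itself read 9.85, 9.85 and 10.04 on these arrays, and was thus no lower on the array carrying the RBPJ-null label; how many of its probes lie in the deleted part is not known here, and that array is named by its label throughout. The dendritic cell markers Itgax, H2-Aa, H2-Ab1, Cd74, Flt3, Zbtb46 and Itgam were above background on all 3 arrays. Of 5 measured T cell markers only Cd3e was above background, at 7.65, 7.64 and 7.65. Of 6 B cell and plasma cell markers Cd79a, Ms4a1, Pax5 and Sdc1 were not above it on any array, whereas Cd79b read 8.20, 9.12 and 9.29 and Jchain 10.70, 9.68 and 8.68, so these differed in opposite directions. Of 6 natural killer cell markers Klrd1 read 9.46, 10.60 and 10.60 and Klrk1 6.56 (below background), 8.74 and 8.60, and the other 4, Ncr1 among them, were not above background. Markers of monocytes and macrophages differed between the populations: the summed linear level of 11 such genes was 5156 on the Esam(hi) control, 21121 on the Esam(lo) control and 20955 on the array labelled RBPJ-null, with only Mertk below background throughout. This sum is weighted to bright genes such as Lyz2 (9.97, 13.06 and 13.20). Adgre1 differed little (10.32, 10.52 and 10.56), and Fcgr1 read 6.97 on every array. The summed level of 7 neutrophil markers was also lowest on the Esam(hi) control (4736, 10243 and 11130), but Mpo (9.28, 8.31 and 8.74) and Elane (8.95, 8.60 and 8.74) were highest there. The part of these cells in the proteasome values was not tested, and in sorted populations measured in bulk fewer cells of a type and less RNA per cell cannot be told apart.

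Of the 48 genes, 42 were above background on all 3 arrays. Psmc6 and Psmg2 were above it only on the Esam(lo) arrays, and 4 genes were above it on none. These 4 were the assembly factors Psmd9 and Psmg3 and the tissue-restricted subunits Psma8, a form of testis, and Psmb11, a form of the thymic cortex. Psmb11 read 5.79 on the Esam(hi) control and 5.66 on the others, and Psma8 read 5.33 on all 3, so neither gave a level distinct from background.

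**Figure D1:**
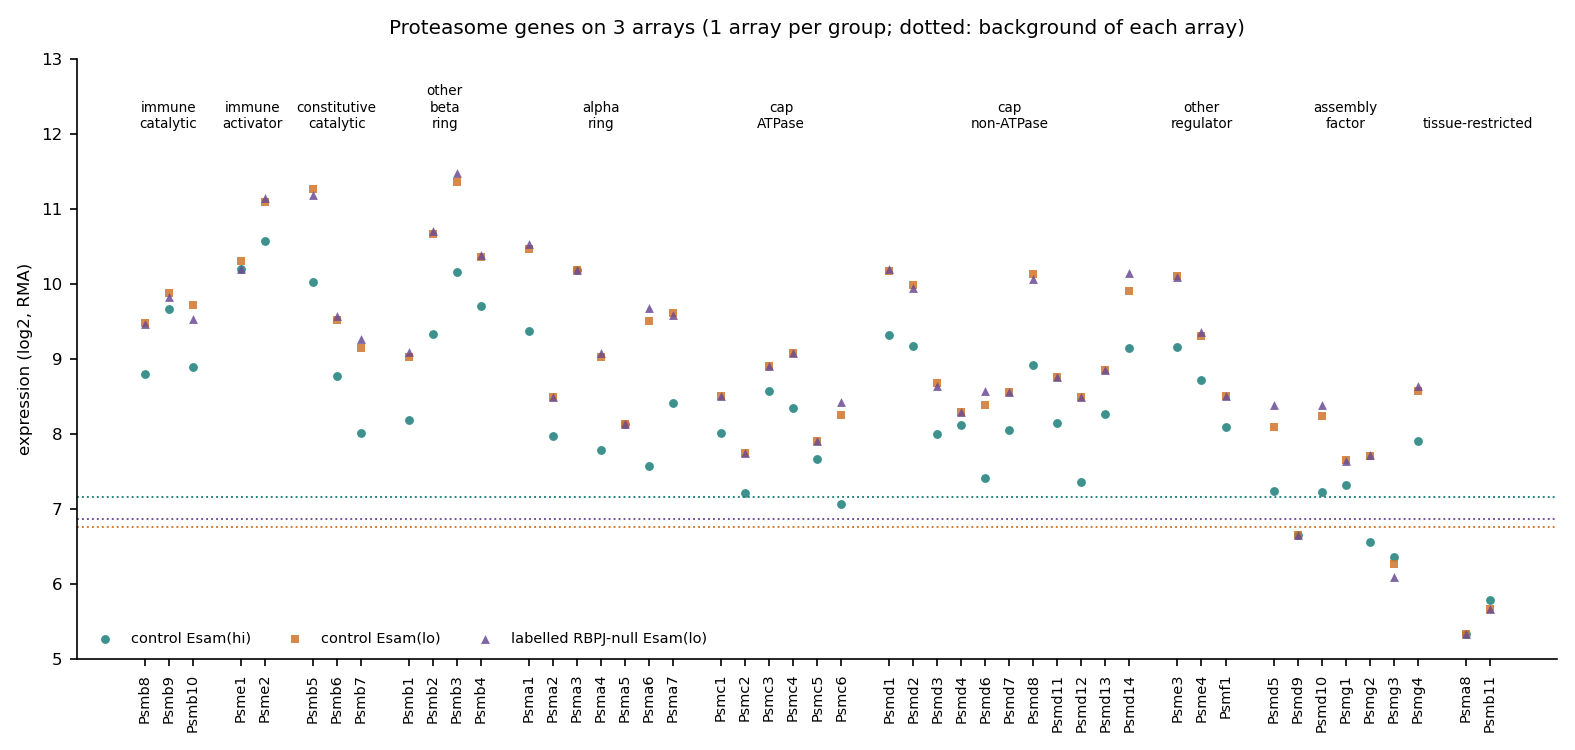
Log2 expression of the 48 proteasome genes, ordered by role along the horizontal axis, on the Esam(hi) control (circles), the Esam(lo) control (squares) and the array labelled RBPJ-null (triangles), 1 array each; dotted lines mark the background of each array (7.17, 6.76 and 6.87). Squares and triangles mostly coincide, while the circles lie lower for most genes above background; they lie at or above the squares for Psma3 and Psma5 and, below background, for Psma8, Psmb11, Psmd9 and Psmg3.

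The regulatory sequences of a few subunits are shown because catalytic subunits of the immune and the constitutive kind are known for different control elements, the former for interferon elements and the latter for the antioxidant element used by Nfe2l1. Windows of 300 bases, from 250 before to 50 after an annotated start, were read from RefSeq promoters of build GRCm38.p6, which held 43 windows for 40 of the 48 genes. Each was searched on both strands for the interferon-stimulated element (GAAA, any 2 bases, GAAA), the gamma-activated site TTCNNNGAA and the antioxidant element core TGACNNNGC. Capitals mark the matched letters, and matches on the other strand are shown as they read along the gene. Psmb8 held a gamma-activated site at positions -97 to -89 from its start, Psmb5 an antioxidant core at positions -47 to -39, Psmb6 the same core just before its start, and Psme1 an interferon-stimulated element at positions 9 to 18.
Psmb8, chr17:34198073-34198132, + strand: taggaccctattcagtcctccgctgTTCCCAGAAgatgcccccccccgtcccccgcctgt
Psmb5, chr14:54618008-54618067, - strand: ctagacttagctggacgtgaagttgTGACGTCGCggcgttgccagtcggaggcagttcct
Psmb6, chr11:70525297-70525356, + strand: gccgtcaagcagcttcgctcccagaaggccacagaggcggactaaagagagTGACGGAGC
Psme1, chr14:55578493-55578522, + strand: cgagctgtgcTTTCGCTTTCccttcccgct

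Over all proteasome windows the gamma-activated site was found in 3 of 43 (6.98%, against 8.30% of 32851 windows of all genes), the antioxidant core in 6 (against 12.4%) and the interferon-stimulated element in 5 (11.6%, against 3.44%). The genes with the interferon-stimulated letters were Psmb3, Psmd4, Psmd9, Psme1 and Psmg4, so they spanned constitutive and immune members. The gamma-activated letters were also found in the cap subunit Psmd2 and the assembly factor Psmg1. The antioxidant core also occurred in Psmc6, Psmd12, Psmd9 and Psme4. No interferon match was found for the immune members Psmb9, Psmb10 and Psme2, and no antioxidant core for the constitutive Psmb7. Whether each of these genes was among the 40 with a window is not given here, so the sequences shown do not establish a rule by kind of subunit. A match describes letters only and marks no binding.

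The first comparison sets the 2 control populations side by side. Most proteasome genes read lower on the Esam(hi) array: of the 44 genes above background on at least 1 of the 2 arrays, 42 were lower, 1 was higher and 1 was tied, with a median difference (Esam(hi) minus Esam(lo)) of -0.74. Most genes of any kind did so on these arrays: of all 9196 above background, 6546 were lower, 1608 higher and 1042 tied. At least 2-fold lower were 13 of the 44 (29.5%), and none was 2-fold higher. Over all genes above background 11.6% were 2-fold lower and 0.816% higher, with a median of -0.32. Over the 6636 genes whose mean level lies inside the range of the constitutive subunits (7.57 to 11.01), 14.3% were 2-fold lower. Psmc6 and Psmg2 entered the count only through the Esam(lo) array; among the 42 genes above background on both arrays 11 were 2-fold lower (26.2%, against 10.4% of all such genes). Differences between these arrays go with expression level, and removing that trend left 3 of the 13 genes 2-fold lower (Psma6, Psmc6 and Psmg2), where 5.3% of all genes were, with a median of -0.34 against -0.05. As Psmc6 and Psmg2 were below background on the Esam(hi) control, Psma6 is the only one of these 3 measured on both arrays. With quantile normalization 6 of the 44 genes were 2-fold lower, against 651 of all 9196 genes (7.08%), and the medians were -0.47 and -0.13. At a threshold of 1.5-fold 29 of the 44 were lower, against 2944 of 9196 (32%), and at 3-fold 1 of the 44, against 196 of 9196 (2.13%).

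The immune catalytic subunits, which cut after residues favoured at the ends of MHC class I peptides, were each less than 2-fold apart. Psmb8 (probe set 10444258), the counterpart of Psmb5, read 8.81 on the Esam(hi) control, 9.48 on the Esam(lo) control and 9.47 on the array labelled RBPJ-null. Psmb9 (10450145), the counterpart of Psmb6, read 9.67, 9.88 and 9.83 in the same order. Psmb10 (10581378), the counterpart of Psmb7, read 8.90, 9.72 and 9.53. The Esam(hi) control was thus the lowest for all 3, by 1.59-fold for Psmb8, 1.16-fold for Psmb9 and 1.77-fold for Psmb10 relative to the Esam(lo) control. The small difference of Psmb9 (-0.21) turned positive with the level trend removed (0.22) and with quantile normalization (0.10).

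The activator subunits Psme1 and Psme2 form a ring that opens the core without ATP. Psme1 (10415282) read 10.21, 10.31 and 10.21 on the Esam(hi) control, the Esam(lo) control and the labelled array, the smallest control difference of the 5 immune members (-0.10). It turned to 0.32 with the level trend removed and to 0.19 with quantile normalization. Psme2 (10420030) read 10.57, 11.10 and 11.15, 1.44-fold lower on the Esam(hi) control. Psme1 and Psme2 lie near each other on chromosome 14 in the gene table, with Emc9 as the protein-coding gene between them, and differed by unequal amounts.

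The constitutive catalytic subunits were farther apart. Psmb5 (10419810), which carries the chymotrypsin-like site, read 10.03, 11.27 and 11.19, a 2.37-fold lower value on the Esam(hi) control than on the Esam(lo) control. Psmb7 (10482229), with the trypsin-like site, read 8.01, 9.16 and 9.28 (2.21-fold lower), and Psmb6 (10377851), with the caspase-like site, read 8.78, 9.53 and 9.57 (1.68-fold lower). In each of the 3 pairs of an immune subunit and its counterpart, the constitutive one differed more between the control arrays. The immune difference exceeded the constitutive difference by 0.57 (log2) for Psmb8 and Psmb5, 0.54 for Psmb9 and Psmb6, and 0.32 for Psmb10 and Psmb7. These gaps do not depend on where an array is centred, and they were 0.60, 0.53 and 0.38 with the level trend removed and 0.61, 0.53 and 0.42 with quantile normalization. With 1 array a group they have no error, and all 3 rest on the same 2 arrays.

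**Figure D2:**
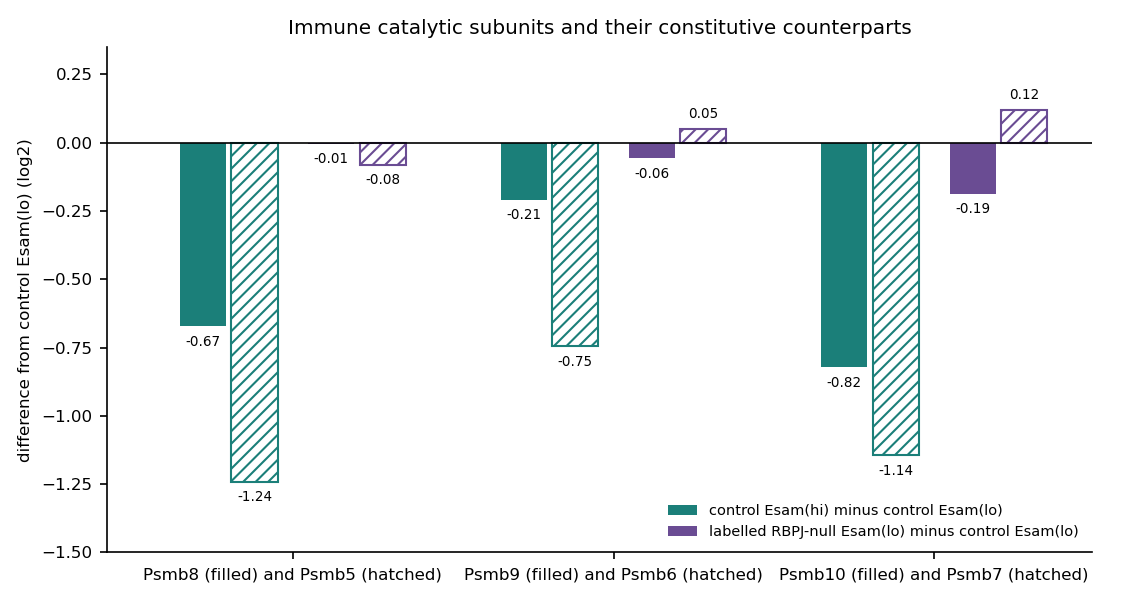
Log2 differences from the Esam(lo) control for each immune catalytic subunit (filled bars) and its constitutive counterpart (hatched bars), on the Esam(hi) control (green) and the array labelled RBPJ-null (purple), 1 array each and no error bars. On the Esam(hi) control the constitutive bars reach -1.24, -0.75 and -1.14, below the immune bars at -0.67, -0.21 and -0.82; on the labelled array all bars lie between -0.19 and 0.12.

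The contrast was smaller when all members were taken. The 5 immune members had a median control difference of -0.52 and none was 2-fold apart, while the 31 constitutive subunits of core and cap had a median of -0.77 and 11 of them (35.5%) were 2-fold lower, beside 14.3% of genes of like level. At that share a count of 0 among 5 genes carries no contrast, and with the level trend removed only 2 of the 31 constitutive subunits were 2-fold lower, beside 5.77% of genes of like level. The gap between the medians was 0.24 on the log2 scale, 0.25 with the level trend removed and 0.22 with quantile normalization. The ranges overlapped: immune members lay between -0.82 and -0.10, 15 constitutive subunits fell inside that range, 14 lay below it and 2, Psma3 and Psma5, lay above it. For Psma5 this holds for the probe set used only, as its other probe set was lower on the Esam(hi) control (7.89 against 8.17). Among these 36 genes, ordered from the highest difference down, Psme1 was at position 3 and Psmb9 at 5. The 3 catalytic pairs alone gave a median gap of 0.54.

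The beta subunits without a catalytic site hold the inner rings together. Psmb2 (10508182) read 9.34, 10.67 and 10.71, a 2.53-fold lower value on the Esam(hi) control than on the Esam(lo) control. Psmb3 (10434643) read 10.17, 11.37 and 11.48, 2.30-fold lower, and its other probe set (10380815) gave the same order with values of 9.57, 11.23 and 11.26. Psmb4 (10500034) differed least, at 9.71, 10.36 and 10.39. All 4 of these subunits, Psmb1 included, were thus lower on the Esam(hi) control, 2 of them at least 2-fold, with a median of -1.02. Of all 9196 genes above background, 6546 were lower and 11.6% at least 2-fold, with a median of -0.32. The count of 2 became 0 with the level trend removed (median -0.62) and 1 with quantile normalization.

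The alpha subunits, which form the outer rings and gate the core, spread most. Psma6 (10395816) had the largest control difference of all proteasome genes: it read 7.58 on the Esam(hi) control, 9.51 on the Esam(lo) control and 9.68 on the labelled array, 3.82-fold lower on the first than on the second. It remained 2-fold lower with the level trend removed (-1.55) and with quantile normalization (-1.75). Psma4 (10585474) read 7.79, 9.03 and 9.08 (2.36-fold lower), Psma7 (10490370) 8.42, 9.62 and 9.59 (2.30-fold), and Psma1 (10567072) 9.38, 10.48 and 10.54 (2.14-fold). Psma2 was less than 2-fold lower (-0.52). For Psma1, Psma4, Psma6 and Psma7, then, both Esam(lo) arrays lay close together and the Esam(hi) control stood at least 2-fold below them.

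On the probe sets used, Psma3 and Psma5 did not follow. Psma3 is named by 3 probe sets, of which 10543783 read 10.19, 10.18 and 10.18 and the others (10396193 and 10419711) gave one value on all 3 arrays, 10.15 and 9.97. The main Psma5 probe set (10365426) also read 8.14 on every array, while the other (10495279) read 7.89, 8.17 and 8.17. Psma5 was thus lower on the Esam(hi) control by its other probe set, and its place as an exception rests on the choice of probe set. Exact ties between the control arrays occurred in 11.3% of genes above background; how they arose was not tested, and a tie is not read here as equal expression. With the trend removed the control differences of these genes became 0.43 (Psma3) and 0.29 (Psma5). The several probe sets of Psma3 list the same transcript accession, and whether they read copies of the gene elsewhere in the genome was not tested.

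**Figure D3:**
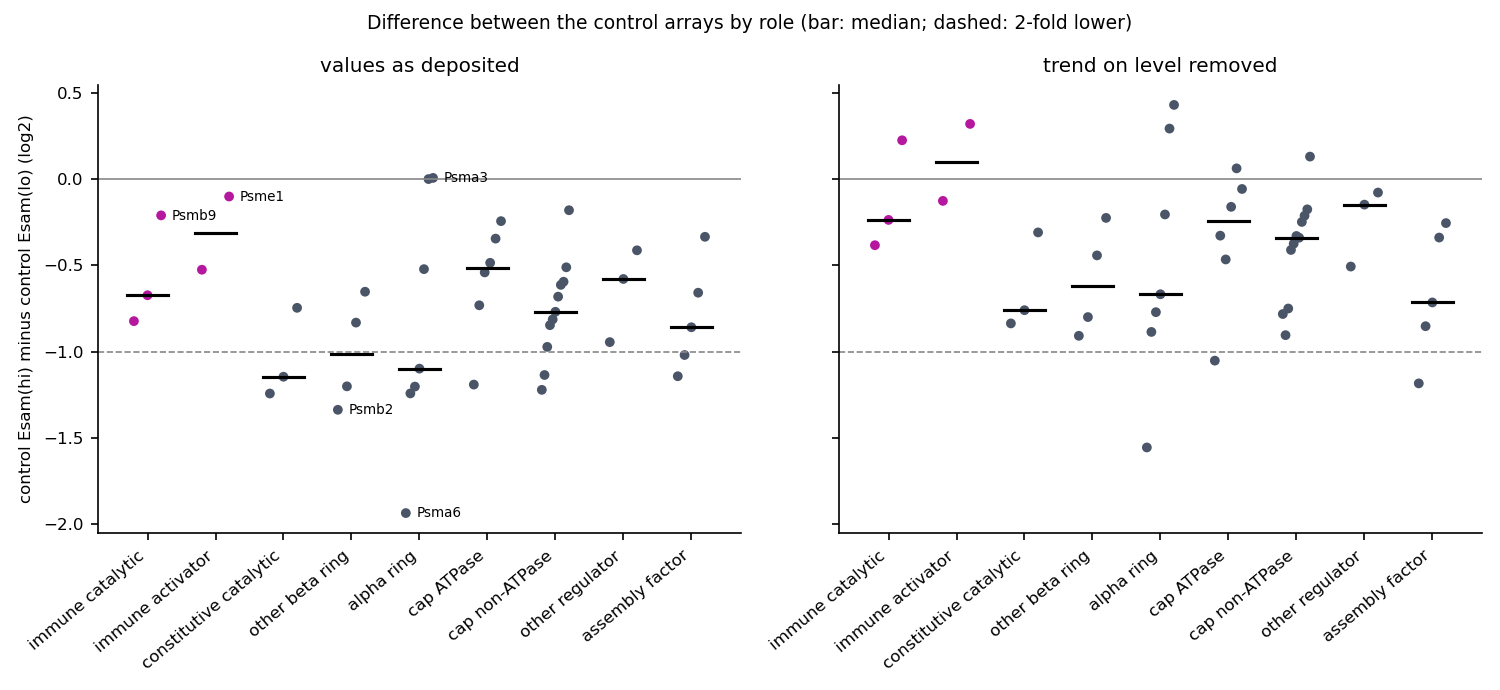
Log2 difference between the Esam(hi) and the Esam(lo) controls for the 44 proteasome genes above background on at least 1 of them, by role (magenta, immune; grey, others), as deposited (left) and with the trend on expression level removed (right); bars are medians over genes and the dashed line marks 2-fold lower. Constitutive core subunits reach below -1 on the left, Psma6 lowest at -1.93, and only Psma6, Psmc6 and Psmg2 lie below the line on the right.

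Subunits of the cap, which binds ubiquitin chains and feeds the substrate into the core, were lower as well but fewer reached 2-fold. All 6 ATPase subunits read lower on the Esam(hi) control, with a median of -0.51. Of all 9196 genes above background, 6546 read lower too. Psmc6 (10414288) read 7.06, below background, against 8.25 on the control Esam(lo) and 8.44 on the labelled array, at least 2.12-fold lower, and Psmc5 (10382069) differed least, at 7.67, 7.92 and 7.92. Both probe sets of Psmc1 gave similar differences, with 8.02, 8.51 and 8.51 for the one used (10397741) and 7.92, 8.44 and 8.50 for the other (10439878).

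The 11 subunits of the cap without ATPase activity were likewise all lower on the Esam(hi) control. Their median was -0.77, beside -0.32 over all genes above background. Psmd8 (10561679) read 8.92, 10.14 and 10.08, 2.33-fold lower, and Psmd12 (10382139) read 7.36, 8.50 and 8.50, 2.20-fold lower. Psmd6 fell just short of the rule at 7.42, 8.39 and 8.58. Psmd14, the enzyme that removes ubiquitin chains at the cap, read 9.15, 9.92 and 10.15. Psmd4, a ubiquitin receptor, differed least (8.12, 8.30 and 8.30), and its difference of -0.18 turned to 0.13 with the level trend removed. The same reversal was seen for the ATPase Psmc3 (-0.34 and 0.06). Both Psmd2 probe sets were lower on the Esam(hi) control, with 9.18, 9.99 and 9.95 for the one used and 8.92, 9.80 and 9.82 for the other. Across core and cap, 8 of 14 constitutive core subunits and 3 of 17 cap subunits were 2-fold lower (57.1% and 17.6%, beside the 14.3% of genes of like level), with medians of -1.12 and -0.68. With the level trend removed 1 of each was 2-fold lower, and with quantile normalization 3 and 2, so the counts then lay close together, while the medians were -0.71 and -0.33, and -0.84 and -0.46.

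The remaining activators act outside the immune pair. Psme3, which forms a nuclear activator ring, read 9.17, 10.11 and 10.10 (1.92-fold lower on the Esam(hi) control than on the Esam(lo) control), a larger difference than those of Psme1 and Psme2 by 0.84 and 0.42. Psme4, a single-chain activator, read 8.73, 9.31 and 9.36, and Psmf1, an inhibitor of the core, 8.10, 8.51 and 8.51. Of the 5 assembly factors above background, all were lower and 2 by the 2-fold rule: Psmd10, a chaperone of the cap, at 7.23, 8.25 and 8.39, and Psmg2, a chaperone of the alpha ring, at 6.57 (below background), 7.71 and 7.72, which bounds its fold at 1.46 or more. Psmd5, another cap chaperone, read 7.24, 8.10 and 8.39. Psmg1, the partner of Psmg2, differed least of them (7.33, 7.66 and 7.65). Of all 9196 genes above background, 6546 were lower on the Esam(hi) control and 11.6% at least 2-fold. With the level trend removed Psmd10 was at -0.85, short of 2-fold. Only Psmg2, with its limit, then stayed past 2-fold among the assembly factors. Psme3ip1, no subunit, read 8.68, 8.78 and 8.78, and Psmc3ip was below background at 6.16 on every array.

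The second comparison, of the array labelled RBPJ-null with the Esam(lo) control, found little apart. No proteasome gene of the 44 above background was 2-fold higher or lower, where 0.0749% of all genes were 2-fold higher and 0.193% lower. The median difference (labelled minus control) was 0.00, as over all genes above background, and 34 of the 44 genes lay within 0.1 on the log2 scale. Small differences were general on this pair: at 1.5-fold 0.513% of all genes were lower and 0.396% higher. The share of all genes within 0.1 was not counted, so the 34 of 44 is not read as particular to the proteasome genes. Exactly tied were 13 of the 44, and 40.1% of all genes above background were tied on this pair of arrays. The largest difference was that of the assembly factor Psmd5, 0.28 higher on the labelled array, followed by Psmd14 at 0.24. Psmb10 was the farthest below, at -0.19. The immune members had a median of -0.06, with 4 of 5 lower and Psme2 higher by 0.05, and the constitutive subunits a median of 0.00. Without replicates, differences of this size cannot be set against array error.

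**Figure D4:**
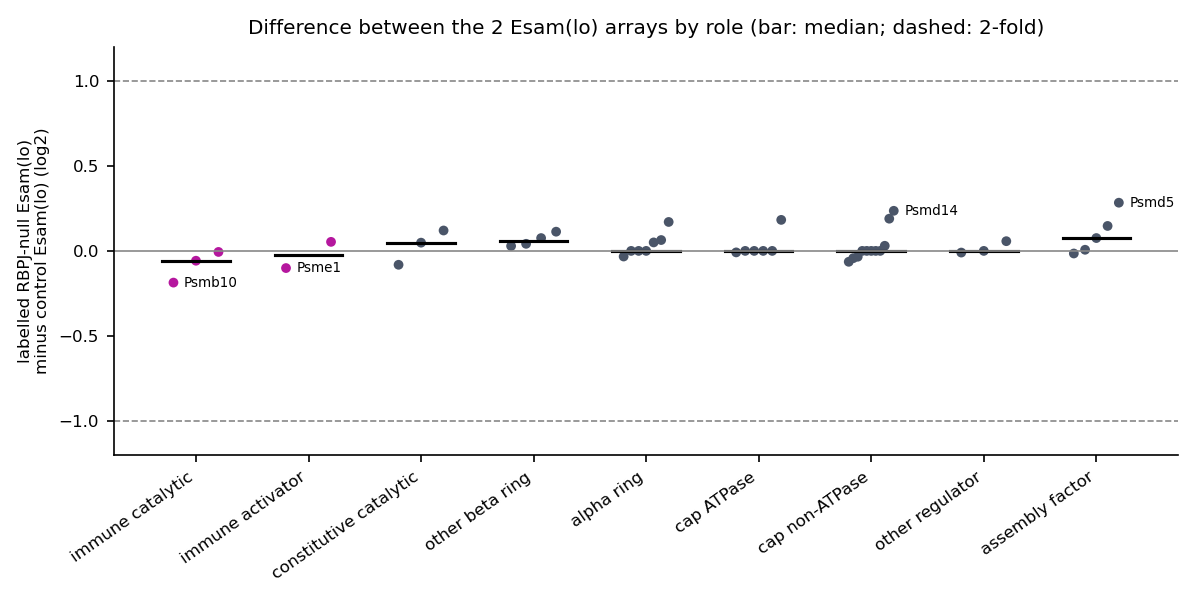
Log2 difference between the array labelled RBPJ-null and the Esam(lo) control for the 44 proteasome genes above background, by role (magenta, immune; grey, others); bars are medians over genes and dashed lines mark 2-fold. All points lie between -0.19 (Psmb10) and 0.28 (Psmd5).

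The third comparison is between the labelled array and the Esam(hi) control, and it shares an array with each of the others. Here 16 of 44 proteasome genes (36.4%) were at least 2-fold higher on the labelled array and none lower, against 12.9% of all genes higher and 1.18% lower. Psmc6 and Psmg2 again entered only through the brighter array, and without them 14 of 42 were higher (33.3%, against 11.8% of all genes above background on both arrays). Of the 16, 3 stayed 2-fold higher with the level trend removed (Psma6, and Psmc6 and Psmg2 with their limit), where 6.09% of all genes were, and inside the level range of the constitutive subunits 15.8% of genes were 2-fold higher. With quantile normalization 11 of the 44 were 2-fold higher, against 7.72% of all genes. At 1.5-fold 30 of the 44 were higher (32.4% of all genes) and at 3-fold 1 (2.76%). The 16 included Psmd5 (2.21-fold), Psmd6 (2.24-fold) and Psmd14 (2.01-fold), which had missed the rule between the controls. Psma6 was again farthest apart, 4.30-fold higher. Of the immune members, Psme1 had the same value on both arrays and Psmb9 was 1.11-fold, Psme2 1.49-fold, Psmb10 1.55-fold and Psmb8 1.59-fold higher, while Psmb5 was 2.24-fold, Psmb6 1.73-fold and Psmb7 2.40-fold higher. The differences of Psmb9 and Psme1 turned negative with the level trend removed (-0.29 and -0.43). The median difference was 0.58 for the immune members and 0.79 for the constitutive subunits.

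Other genes of the pathway were read from lists of 40 symbols, of which 30 were measured by a probe set of their own. Some of the other symbols are alternative names of genes measured as Sem1 (Shfm1) or Ecpas (Ecm29 and AI314180). Between the control arrays 27 of the 30 were lower on the Esam(hi) array, 4 of them at least 2-fold (13.3%, close to the 11.6% of all genes), and none was 2-fold higher (median -0.64, and -0.27 with the level trend removed). Of all 9196 genes above background, 6546 were lower. Pomp, an assembly chaperone of the core, read 8.19, 9.42 and 9.27 on the Esam(hi) control, the Esam(lo) control and the labelled array. Its value was 2.35-fold lower on the first than on the second. Nfe2l2, a transcription factor of the antioxidant element, read 9.81, 11.46 and 11.54 (3.14-fold lower), whereas Nfe2l1, its relative known for restoring proteasome genes after inhibition, read 8.82, 9.36 and 9.36 (1.45-fold lower). Of the genes known for immunoproteasome transcription, Irf8 read 8.58, 10.29 and 10.07, and Irf1 read 9.62, 10.06 and 9.92. Nlrc5, the transactivator of MHC class I genes, was the only one of the 30 that was higher on the Esam(hi) control, at 11.23, 10.71 and 10.49.

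In the MHC class I loading list 7 of 9 genes were lower on the Esam(hi) control and 2 were tied, beside 6546 lower of all 9196 genes above background. At least 2-fold lower was 1 gene (11.1%, near the share over all genes). The median of the list was -0.45, and -0.09 with the level trend removed. The 2-fold lower gene was Pdia3, a member of the peptide-loading complex, at 9.33, 10.56 and 10.99. The gene table places Psmb9, Tap1, Psmb8 and Tap2 next to one another in this order on chromosome 17. Their control differences were -0.21, -0.38, -0.67 and 0.00, so Psmb9, Tap1 and Psmb8 differed by unequal amounts. The 0.00 of Tap2 is an exact tie and is not read as equal expression. Tap1 and Tap2, the subunits of the peptide transporter, read 10.55, 10.93 and 10.93, and 9.51 on every array, respectively. B2m, the light chain of MHC class I, read 13.25, 13.71 and 13.74. Between the Esam(lo) arrays none of the 30 was 2-fold apart.

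Other gene groups of broad function differed by similar amounts between the control arrays. Among subunits and assembly factors of the mitochondrial respiratory chain 17 of 59 genes above background (28.8%, median -0.69) passed the 2-fold rule towards lower values on the Esam(hi) control, and among cathepsins, the proteases of the lysosome, 4 of 11 (36.4%, median -0.75). The proteasome genes, at 29.5% and -0.74, lay between these values, so their shift did not exceed that of both other groups. With the level trend removed the medians were -0.36 for the respiratory chain, -0.39 for cathepsins and -0.34 for the proteasome genes.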

How the data were processed

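RNA was amplified and biotin-labelled for Affymetrix Mouse Gene 1.0 ST arrays, per the labels' protocols. Values came as log2 expression per probe set, made by the authors with RMA in Affymetrix Expression Console per the submitters' processing notes; versions, genome build and which arrays were normalized together were not given in the sources used. Upper quartiles of the 3 columns differ (8.08, 8.27 and 8.31), so differences of scale remain. Of 35556 probe sets, 21789 name 1 gene, 1621 several and 12146 none in the platform annotation; the first were used. A gene with several probe sets was read from that with the highest mean. All 50 members were found by Entrez number in RefSeq tables (GRCm38.p6), from which neighbours and promoters were taken.

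The level trend was removed by lowess (fraction 0.3, statsmodels 0.14.6) of the difference on mean level over all genes, tested on simulated data. Named are the 5 immune members and the 3 constitutive catalytic subunits, members 2-fold apart in any comparison, the largest and smallest difference per role, members with several probe sets, and 2-fold or selected pathway genes; others are named to complete a count. Members and lists were chosen with earlier results of these data known. The number of arrays limits the precision. Alternatives were other filters, scalings, fold thresholds and probe set rules.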

Additional observations from a re-analysis of the deposited data

How the results depend on the processing

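Counts depended on both the fold threshold and the scaling. Between the control arrays the count of proteasome genes that were 2-fold or more lower in Esam(hi) cells, 13 as deposited, was 6 with quantile normalization and 3 with the level trend removed, and it was 29 at 1.5-fold and 1 at 3-fold. The median of the constitutive subunits moved from -0.77 to -0.49 with quantile normalization and to -0.37 with the trend removed, and that of the immune members from -0.52 to -0.27 and -0.13. Between the labelled array and the Esam(hi) control, the count of 16 genes higher became 11 with quantile normalization, 3 with the trend removed, 30 at 1.5-fold and 1 at 3-fold. The constitutive median of 0.79 became 0.47 and 0.43 with quantile normalization and with the trend removed, and the immune median of 0.58 became 0.30 and 0.18. The gap between immune and constitutive medians kept its sign under every alternative run. In the control comparison it was 0.24, and 0.54 over the 3 catalytic pairs. Against the labelled array it was -0.22, and -0.44 with means over members, -0.63 over the catalytic pairs and -0.33 with the stricter filter (the array's 75th percentile). No filter, median centring, the mean over probe sets and, chosen after seeing the data, leaving out the 5 members with several probe sets kept these counts, medians and gaps within 1.5 times their values. The cause of these shifts was not tested. No paired analysis was possible because each group has 1 array, and for the same reason no array could be left out. Signal near background limits Psmc6, Psmg2, Psmc2, Psmd5 and Psmd10, which lay at or below 7.24 on the Esam(hi) control.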
